A study of Drosophila melanogaster with 3 samples.

Results

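Single-exon isoforms of identified genes are the unspliced transcripts of the fly head catalogue that could be given a gene. They were chosen by the exon structure and the name written in the deposited file: exactly 1 exon line and a FlyBase gene identifier. There were 269 of them among 5272 isoforms in all, or 5.41% (95% Wilson interval 4.82 to 6.08%) of the 4969 isoforms with a gene identifier. Each belonged to a different gene. In 264 of the 269 genes the catalogue held no other isoform, and in 5 it also held at least 1 spliced isoform.

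The catalogue came from PacBio Iso-seq, which reads full-length cDNA of polyadenylated RNA in 1 consensus read per molecule. The 3 libraries were made from heads of 3-day-old, untreated flies of the strain w1118 and form 1 group. They were pooled into 1 list of exon coordinates on the dm6 build, so no value per library, no abundance and no replicate error exists for the isoforms below. Each interval and p-value thus measures counting error alone, and tests over isoforms treat them as independent. The libraries had been selected for transcripts above 3 kb and amplified by PCR, and the study kept reads whose 5′ end was supported by a promoter database. Markers of head tissues were present: 20 of 25 genes on a list of photoreceptor, neuronal, glial, muscle and fat body markers had an isoform, while elav, brp, para, repo and Yp2 had none.

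Most fly genes contain introns, which the spliceosome removes from the nuclear transcript before export. A minority of genes has no intron, and their messenger RNA is made without splicing. Intronless genes of insects include heat-shock genes, most histone genes, the Notch targets of the Enhancer of split complex and several compact families of enzymes and secreted peptides. An unspliced cDNA of a gene that does have introns can instead retain an intron, start downstream of it, or come from precursor RNA or DNA. A splice junction also carries the direction of transcription in its sequence, which an unspliced alignment lacks.

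All members lay on genes whose annotation allows an unspliced transcript. In the Ensembl annotation of the same assembly, 233 of the 269 genes (86.6%, 82.0 to 90.2%) have only single-exon transcripts. Another 36 (13.4%, 9.83 to 18.0%) have single-exon and spliced transcripts, and 0 have only spliced ones. Of the 269 genes, 267 are protein-coding and 2 are noncoding, lncRNA:CR33963 and lncRNA:Hsromega. These shares follow at least in part from the naming itself. All 269 members overlapped an annotated single-exon transcript of their gene by at least 50% of both lengths. The 0 is therefore not an independent estimate. Of the members, 266 overlapped an annotated single-exon transcript by at least 80% of both lengths, whereas only 2 of the 301 single-exon isoforms without an identifier did. The exceptions were eEF1alpha1 with 58.0%, CG9759 with 59.6% and alphaTub84D with 79.8%, and the members just above were CG11590 with 80.6% and Mpp6 with 80.8%. End positions, relative lengths and coding content of the members are for that reason given as descriptions without a test against spliced isoforms, except where stated.

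The members were shorter than spliced isoforms. Their length ranged from 407 to 6401 nt with a median of 1340 nt (quartiles 913 and 1877 nt), and the 4671 spliced isoforms of genes matched to the annotation had a median of 2042 nt (1426 and 2914 nt). Only 9 members (3.35%, 1.77 to 6.24%) reached 3000 nt, against 1088 spliced isoforms (23.3%, 22.1 to 24.5%), and 84 members (31.2%, 26.0 to 37.0%) were under 1000 nt, against 515 (11.0%, 10.2 to 11.96%). Lengths run from first to last genomic base for a member and over exons for a spliced isoform. The ratio of a member's length to that of the longest annotated transcript of its gene had a median of 99.9%. Its minimum of 13.1% was that of lncRNA:Hsromega, and its maximum of 149.8% was that of eEF1alpha1, which keeps an intron.

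**Figure D1:**
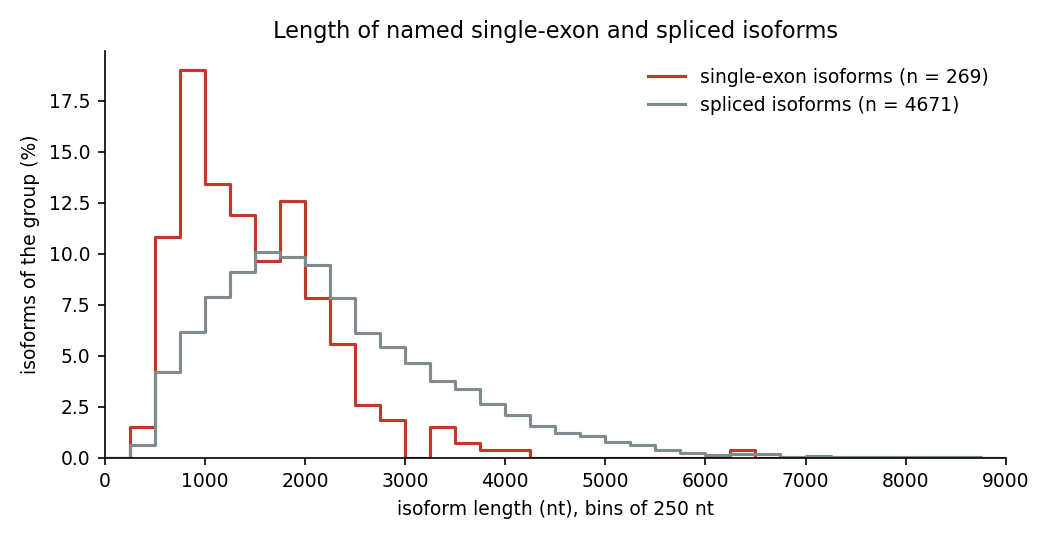
Length of the 269 named single-exon isoforms (red) and of 4671 spliced isoforms (grey), as the percent of each group in bins of 250 nt. The members peak below 1000 nt, and 9 of them reach 3000 nt.

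The longest member was Toll-7, a receptor of the Toll family, with 6401 nt on chromosome 2R, 19826578 to 19832978. It began 1 nt upstream of the annotated start and ended 5 nt beyond the annotated end, and carried a coding sequence of 4341 nt and a 3′ UTR of 1733 nt. Syx1A, the syntaxin of the synaptic vesicle fusion machinery, followed with 4180 nt, of which only 876 nt are coding sequence. Its 5′ UTR of 1320 nt and 3′ UTR of 1985 nt made up the rest, and the isoform ran over a 1525-nt intron of another annotated transcript. The next were kek1 (3893 nt), a transmembrane protein with leucine-rich repeats that inhibits EGF receptor signalling, Fit1 (3552 nt), a kindlin that activates integrins, vvl (3548 nt), a POU-domain transcription factor, and eEF1alpha1 (3412 nt), the elongation factor that brings aminoacyl-tRNA to the ribosome. Hex-A, a hexokinase, had 3378 nt, CG5742 had 3314 nt, Rat1, a nuclear exonuclease that acts in transcription termination, had 3260 nt, and Atg9, a membrane protein of autophagy, had 2832 nt.

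The shortest members were small secreted peptides of immunity and genes without a described product. Drs, which encodes the antifungal peptide drosomycin, had 407 nt with 213 nt of coding sequence, Listericin had 455 nt, CG34227 had 484 nt, the antibacterial peptide gene DptA had 498 nt and CG13947 had 508 nt. All 5 began within 1 nt of an annotated start, and their 3′ ends lay 0 to 25 nt beyond the annotated end.

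Almost every protein-coding member spanned a complete reading frame. The full annotated coding sequence lay inside 263 of 267 isoforms (98.5%, 96.2 to 99.4%). For spliced isoforms the looser measure, an isoform that spans an annotated start and stop codon of its gene, held for 4101 of 4664 (87.9%, 87.0 to 88.8%). In the 263 complete members the median 5′ UTR was 94 nt, the coding sequence 978 nt and the 3′ UTR 156 nt. The 3′ UTR lengthened with the isoform, from a median of 122 nt in 84 isoforms under 1000 nt to 164.5 nt in 124 of 1000 nt to under 2000 nt and 312 nt in 55 of 2000 nt or more. Over the same classes the median coding sequence went from 565.5 to 1117.5 and 1914 nt, so the coding part accounted for most of the added length.

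The 4 incomplete members all ended before the stop codon. Among them, Iru lacked the last 60 nt of its coding sequence, SerRS, a seryl-tRNA synthetase, lacked 40 nt and Nepl4, a neprilysin-like metallopeptidase, lacked 32 nt.

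Where the members began was compared with annotated starts. The study kept only reads with a 5′ end supported by a promoter database, and members were named by overlap with annotation. Both can favour starts near annotation, so the shares do not measure how accurate the starts are. Of the 269, 227 (84.4%, 79.6 to 88.2%) began within 1 nt of a start annotated for their gene, against 4473 of 4671 spliced isoforms (95.8%, 95.1 to 96.3%) and 95.1% of both together. Most of the others began slightly upstream: 37 members (13.8%, 10.1 to 18.4%) lay more than 1 nt upstream and 5 downstream, and 265 (98.5%, 96.2 to 99.4%) lay within 50 nt. Among spliced isoforms 131 (2.80%, 2.37 to 3.32%) began upstream by more than 1 nt. The farthest upstream were Vps29, a retromer subunit, by 89 nt, MED28, a Mediator subunit, by 88 nt, Vha36-1, a subunit of the vacuolar proton pump, by 72 nt and cactin by 67 nt. For MED28 the isoform had a 5′ UTR of 187 nt in place of the annotated 99 nt. The farthest downstream were SerRS (33 nt) and Dip-C (29 nt). Genes named here and below for the distance of an end, other than the longest and shortest members, were chosen after their values were seen.

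The 3′ ends lay less often exactly on an annotated end, but seldom far from one. Within 1 nt were 117 members (43.5%, 37.7 to 49.5%), against 2873 spliced isoforms (61.5%, 60.1 to 62.9%). Within 150 nt, the window in which the study merges 3′ ends, were 254 members (94.4%, 91.0 to 96.6%), against 3519 spliced isoforms (75.3%, 74.1 to 76.6%) and 76.4% of both together. The shift of the members was towards longer transcripts: 119 (44.2%, 38.4 to 50.2%) ended 2 to 150 nt beyond the annotated end, against 304 spliced isoforms (6.51%, 5.84 to 7.25%) and 8.56% of both together. Only 18 members ended 2 to 150 nt short of it.

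The direction of these small offsets was tested after the values were seen. The overlap that naming follows bounds the distance of an end, and for short members this bound can differ between the directions. Distances run to the nearest annotated end, and the groups were not matched for the number of such ends. The p-values below thus describe the counts alone. Of the 137 members with a 3′ end 2 to 150 nt from annotation, 119 (86.9%) lay beyond it, whereas of 646 such spliced isoforms 304 (47.1%) did. By Fisher's exact test (two-sided) the odds ratio was 7.42, with a 95% interval of 4.37 to 13.3 (exact p = 5.87e-19, Benjamini-Hochberg adjusted p = 4.7e-18 over 8 tests). Against spliced isoforms with only 2 exons, of which 48 of 117 (41.0%) lay beyond, the odds ratio was 9.40 (4.94 to 18.7; exact p = 8.24e-15, adjusted 3.3e-14). Obp28a, an odorant-binding protein gene, ended 22 nt beyond the annotated end, Drs 21 nt and kek1 24 nt. How the assembly sets the ends of unspliced and spliced isoforms can differ, and its part in this offset was not tested.

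**Figure D2:**
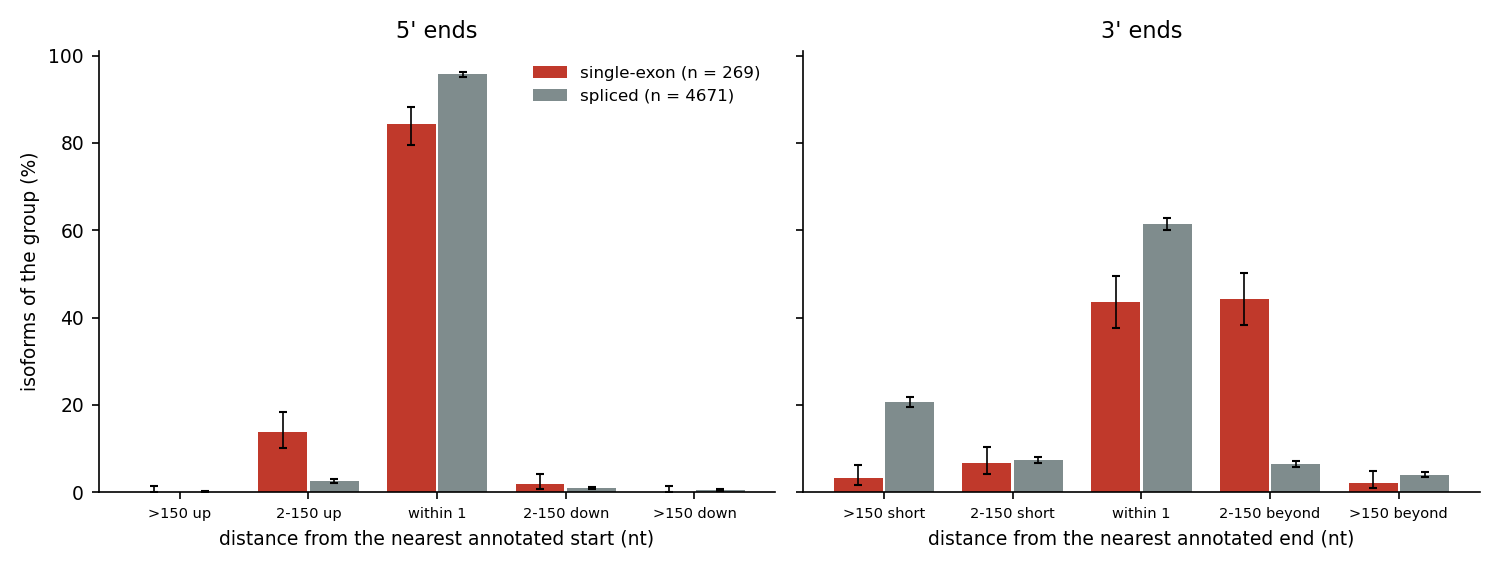
Distance of 5′ ends (left) and 3′ ends (right) from the nearest annotated end of the same gene, as the percent of 269 single-exon isoforms (red) and 4671 spliced isoforms (grey), with 95% Wilson intervals. In the right panel 44.2% of the members and 6.51% of the spliced isoforms end 2 to 150 nt beyond annotation, and 3.35% and 20.6% end over 150 nt short of it.

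Ends more than 150 nt from any annotated end occurred in 15 members, 9 short of it and 6 beyond it. Among those short, vvl on chromosome 3L (6790159 to 6793706) had its end at -831 nt from the annotated one, with a 3′ UTR of 652 nt in place of 1483 nt. Hex-A on chromosome X had its end at -545 nt from the distal annotated end, with 1424 nt of 3′ UTR, while a second annotated end lies further upstream. Others were the ends of mbo, a nuclear pore protein (-300 nt), Srp54 (-277 nt), Iru (-234 nt), SerRS (-192 nt), Mo25, a scaffold of protein kinases (-174 nt), and MED16, a Mediator subunit (-170 nt). Whether these ends are used polyadenylation sites or come from priming inside the transcript was not tested, since no genome sequence was used here.

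Among those beyond, alphaTub84D, an alpha-tubulin gene, reached 502 nt past its annotated end on chromosome 3R (7530754 to 7533234), which lengthened the 3′ UTR from 121 to 623 nt. Rh3, the ultraviolet-sensitive rhodopsin of a subset of R7 photoreceptors, ended 219 nt beyond, with 434 nt in place of 215 nt. CG9759 ended 336 nt beyond the nearest annotated end, CG5653 249 nt, GNBP3, a recognition protein for fungal glucans, 240 nt and CG11590 175 nt. CG9759 has another annotated end further downstream. Just inside the window were CG6870 and Nt5a, 150 and 133 nt beyond, and Clp, Klp64D and Nepl4, at -140, -127 and -123 nt.

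**Figure D3:**
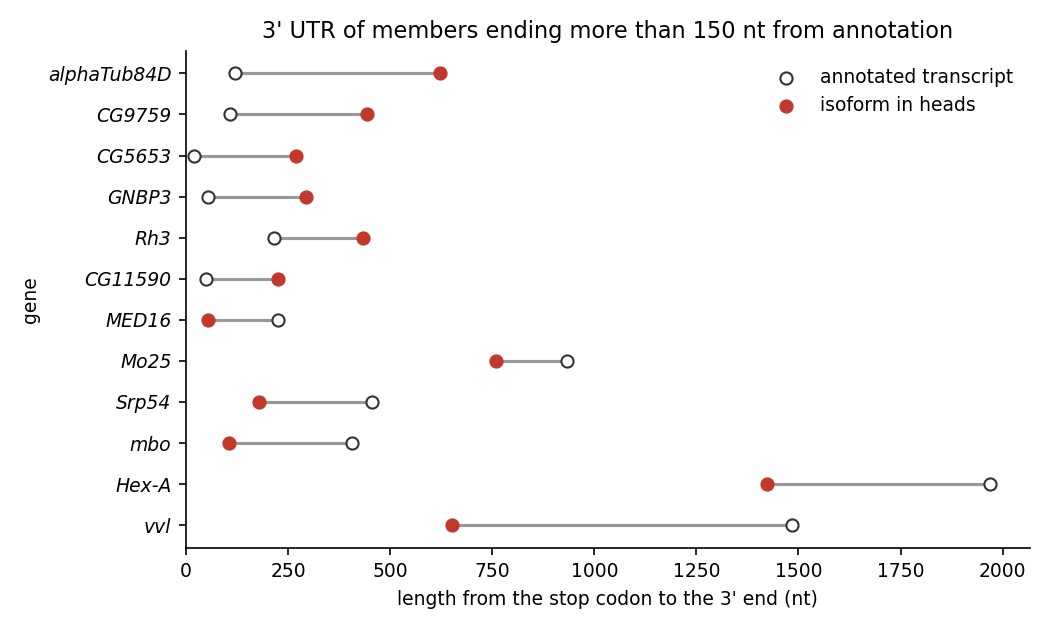
Length of the 3′ UTR, from the stop codon to the 3′ end in nt, in the matched annotated transcript (open) and in the head isoform (filled) for the 12 members that hold the full coding sequence and end over 150 nt from annotation. In the 6 upper genes the head isoform has a longer 3′ UTR than its matched transcript, by up to 502 nt for alphaTub84D. In the 6 lower ones it has a shorter one, down to -831 nt for vvl. No other tissue was compared.

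Among the 36 genes annotated both ways, 20 members (55.6%, 39.6 to 70.5%) ran across at least 1 intron that another transcript of the gene removes, and the other 16 spanned no whole annotated intron. The 20 members spanned 21 introns with a median length of 81 nt (55 to 1525 nt), beside a median of 90 nt over 15923 introns of spliced isoforms. CG2604 alone spanned 2, of 61 and 103 nt. Further introns were of 55 nt in CG13667, 66 nt in CG1575, 353 nt in CG34179 and 80 nt in CG4716. The 4 longest were those of Syx1A (1525 nt), eEF1alpha1 (1370 nt), lncRNA:Hsromega (712 nt) and EbpIII (387 nt), and the last 3 were among the genes with a spliced isoform in the same heads.

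The 5 genes with isoforms of both kinds fell into 2 arrangements. In the first, both isoforms began within 2 nt of each other, and the single-exon isoform ran through the intron of the spliced one. Whether it reflects a retained intron, precursor RNA or DNA was not tested. EbpIII, an ejaculatory bulb protein gene on chromosome 2R, had a single-exon isoform of 972 nt and a spliced isoform of 585 nt with the same start, 24026547, and the same end, 24027518, so that the 387-nt intron was the only difference. For eEF1alpha1 both isoforms began at 11892123 on chromosome 2R. The single-exon one had 3412 nt, kept an intron of 1370 nt and ended 14 nt further than the spliced one of 2028 nt. This intron lies in the 5′ UTR, which came to 1453 nt. The heat-inducible noncoding RNA lncRNA:Hsromega is known for an unspliced nuclear form that organises omega speckles and a spliced cytoplasmic form. It had a single-exon isoform of 2777 nt that kept an intron of 712 nt. This isoform had 13.1% of the length of the longest annotated transcript, 21216 nt, and which known form it represents was not tested. The spliced isoform of lncRNA:Hsromega, of 1038 nt, began 2 nt downstream and had its end at -1025 nt from that of the single-exon one.

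In the second arrangement the single-exon isoform began downstream, close to the last exon of the spliced isoforms. For Pisd, a phosphatidylserine decarboxylase gene on chromosome 3R, it began 899 nt after the start of the spliced isoform, where the second exon of that isoform begins at 907 nt, and the ends of both were 1 nt apart. For CG18135 on chromosome 3L it began 5467 nt after the most upstream start, the other start lying at 2474 nt, while the shared second exon of 3 spliced isoforms begins at 5558 nt. It ended 6 nt beyond 2 of them and 343 nt beyond the third. Both downstream starts coincide with annotated starts. Of the 5 genes, 3 thus shared a start between single-exon and spliced isoforms, and the count is too small for a test.

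**Figure D4:**
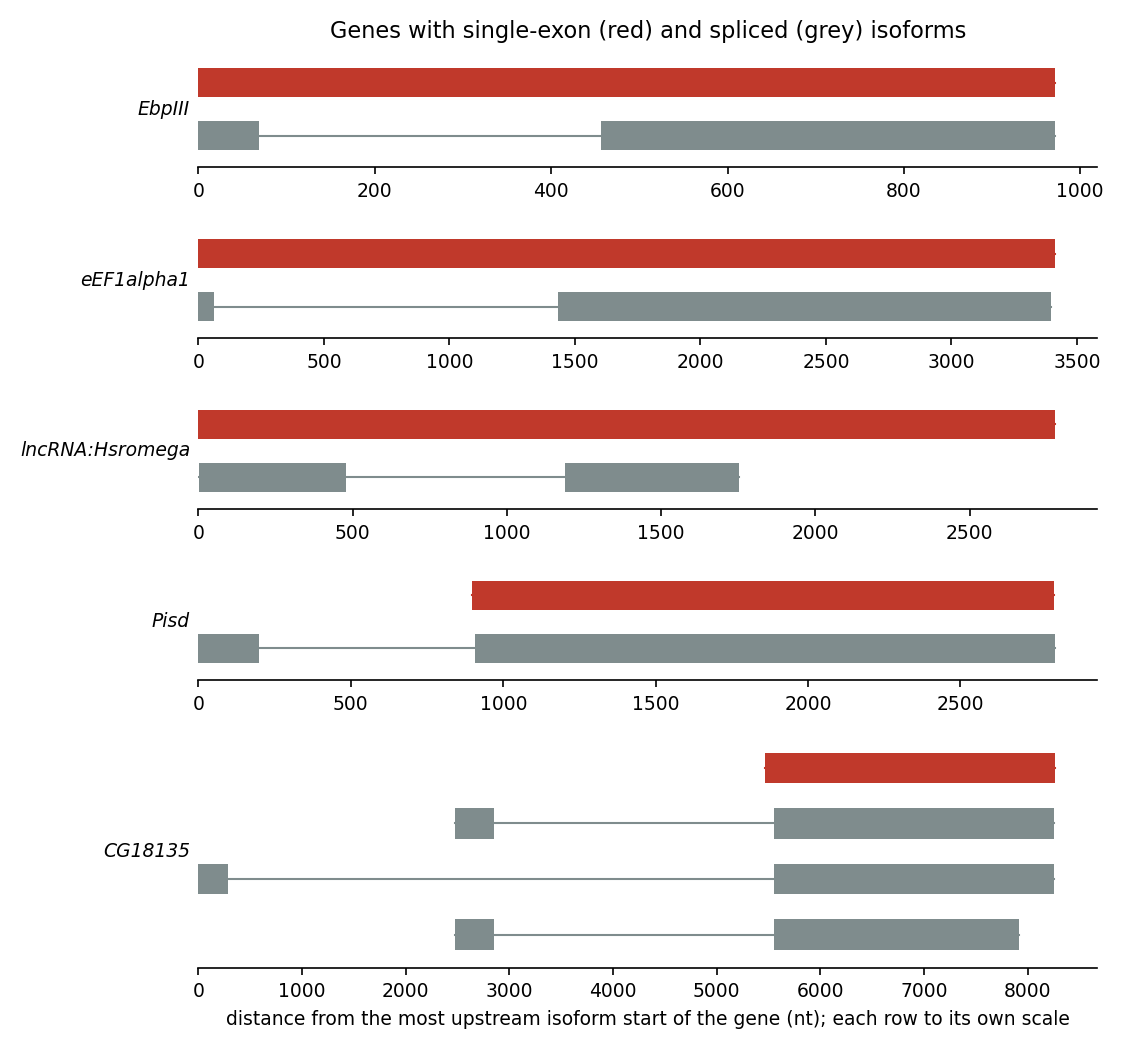
Exons (boxes) and introns (lines) of the single-exon isoform (red) and the spliced isoforms (grey) of 5 genes, against the distance in nt from the most upstream isoform start of the gene, each gene on its own scale. In the upper 3 genes the single-exon isoform runs through the intron, and in Pisd and CG18135 it begins 899 and 5467 nt downstream.

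The members sat inside introns of other genes more often than spliced genes did. Of the 264 genes with single-exon isoforms only, 42 (15.9%, 11.99 to 20.8%) lie entirely within an annotated intron of another gene, against 139 of 3766 genes with spliced isoforms only (3.69%, 3.13 to 4.34%) and 4.49% of all detected genes. The odds of nesting were 4.93 times as high (3.32 to 7.22; p = 7.67e-14 and adjusted p = 2.05e-13 by Fisher's exact test, two-sided). Short genes can be nested more easily, and among genes spanning up to 3000 nt the shares were 39 of 250 (15.6%) and 71 of 1528 (4.65%), with an odds ratio of 3.79 (2.43 to 5.84; exact p = 4.05e-09). Nesting on the same strand was found in 16 and 23 genes (odds ratio 10.5, exact p = 7.08e-10). This is a property of the annotated genes that the catalogue holds, since the position of an isoform follows that of its gene.

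Of the 42 nested genes, 26 (61.9%, 46.8 to 75.0%) lay on the strand opposite to every host. The other 16 had a host on the same strand, beside 23 of the 139 nested genes with spliced isoforms only. A host that itself had an isoform in heads was found for 18 of the 42 (42.9%, 29.1 to 57.8%). That share was not counted for nested genes with spliced isoforms. The following pairs were chosen after their values were seen. The astrocyte gene alrm (1716 nt) lies within Fur1, a furin protease gene, on the same strand, and Syx1A within eIF4EHP, which encodes a cap-binding translation repressor. Nepl5 (2153 nt) and Nepl6 (2050 nt) both lie within DIP-epsilon, a cell surface immunoglobulin gene, on opposite strands of each other. Cyp4g1, the cytochrome P450 that completes cuticular hydrocarbon synthesis in oenocytes, lies within CG32816, and TotX, a stress-induced humoral peptide gene, within the glutamate receptor gene Grik. The innexin gene ogre holds bou, the calcium channel gene Orai holds olf186-M, and the tubulin acetyltransferase gene Atat holds aay.

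How much of the intronless gene set the heads yielded was asked over all annotated protein-coding genes of the chromosome arms that hold isoforms. An isoform was present for 233 of 2126 intronless genes (11.0%, 9.70 to 12.4%), against 3716 of 11511 genes with only spliced transcripts (32.3%, 31.4 to 33.1%) and 28.9% of all. Of the 233, 232 were represented by a single-exon isoform and 1, udd, by a spliced one. Genes annotated both ways had an isoform in 80 of 308 cases (26.0%, 21.4 to 31.1%), with a single-exon isoform in 35 of the 80 (43.8%, 33.4 to 54.7%) and only spliced ones in 45.

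The lower share was present within classes of transcript length. For longest transcripts above 500 and up to 1000 nt, 8.11% (6.42 to 10.2%) of intronless and 16.9% (15.3 to 18.7%) of spliced genes had an isoform. Up to 2000 nt the shares were 14.5% (12.2 to 17.1%) and 30.6% (29.2 to 32.1%), up to 3000 nt 20.5% (15.6 to 26.4%) and 39.6% (37.6 to 41.6%), and above 3000 nt 12.5% (6.19 to 23.6%) and 41.3% (39.6 to 43.0%). Only up to 500 nt did the intervals overlap, with 1.79% (0.765 to 4.11%) and 4.47% (2.77 to 7.14%). Counting single-exon isoforms without an identifier that overlap an intronless gene by at least 50% of both lengths added 8 genes and gave 11.3%, and leaving out the 111 intronless histone genes gave 11.6%. Expression in heads, polyadenylation of the transcript and the support each isoform needed cannot be told apart here. The same holds for the selection above 3 kb and for naming, which for unspliced isoforms follows overlap with annotation. A gene without an isoform is not shown to be silent.

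**Figure D5:**
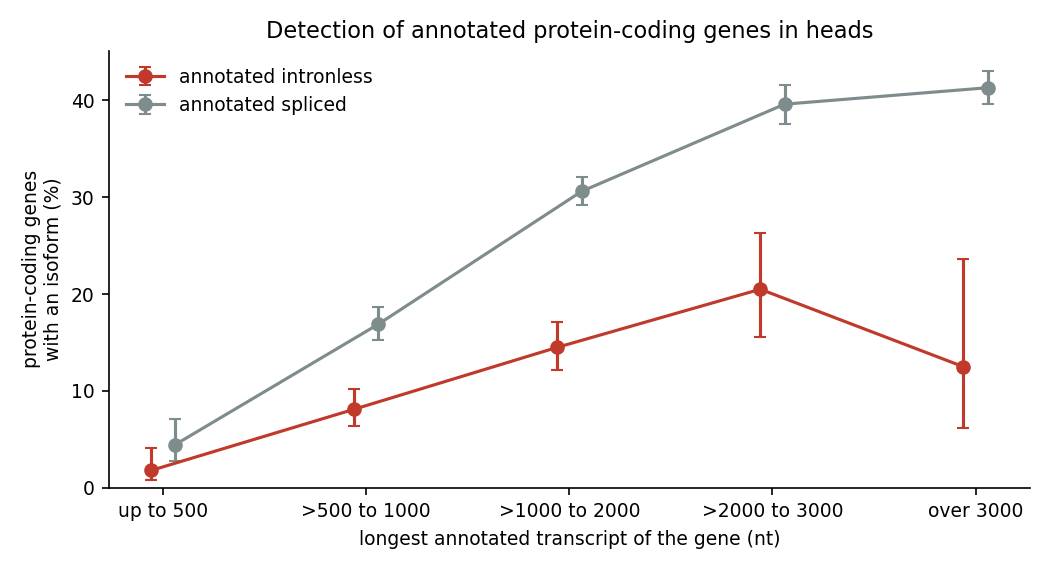
Percent of annotated protein-coding genes with an isoform in heads, by the length of their longest annotated transcript in nt, for genes annotated as intronless (red) and as spliced (grey), with 95% Wilson intervals. Above 500 nt the intronless genes lie lower in every class, for example at 14.5% against 30.6% above 1000 and up to 2000 nt.

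Counts in gene families are given as descriptions, with no test between families, beside the 11.0% of all intronless genes that had an isoform and the 267 of 4029 detected protein-coding genes (6.63%, 5.90 to 7.44%) that had a single-exon one. Among heat-shock genes, 12 of 22 are intronless and 8 had an isoform, 3 of them single-exon: Hsp70Ab (2348 nt), an inducible chaperone, Hsp67Ba (1761 nt) and Hsp22 (967 nt), both of the small heat-shock protein family. The other 5 detected, including Hsp83, Hsp60A and Hsc70-4, had spliced isoforms only. Hsp22 is annotated both ways, so 2 of the 12 intronless heat-shock genes had an isoform. Neither the 15 Enhancer of split and Bearded genes, all intronless, nor the 8 proneural genes, of which 7 are intronless, had any isoform. Of 118 genes taken as histone genes by their symbol, 111 of which are intronless, 4 had an isoform (His2Av, His3.3A, His4r and HisT), and none of these was single-exon. HisT was counted by its symbol alone, and whether it encodes a histone was not checked. Iso-seq reads polyadenylated RNA, so histone transcripts that are not polyadenylated would not be seen.

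Among sensory and signalling genes, 28 of 31 visual genes had an isoform, and the single intronless one, Rh3 (1609 nt), was the only one with a single-exon isoform. Of 60 ionotropic receptor genes, 29 are intronless and none of these had an isoform. Neuropeptide and insulin-like genes had 18 of 46 members detected, and of the 6 intronless ones only Pdf (669 nt), the circadian neuropeptide, was present. It began on the annotated start and ended 10 nt short of the annotated end. Neither of the 2 intronless members among 8 activity-regulated genes had an isoform. None of 59 odorant and 60 gustatory receptor genes was detected. Of 51 odorant-binding protein genes 9 were detected, and Obp28a (596 nt) was the single-exon one.

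Among secreted defence and digestive genes, the immune list had 8 of 37 genes detected, with single-exon isoforms of DptA, Drs and TotX (601 nt), the 3 detected ones of 13 intronless members. The Jonah serine proteases of the gut had 6 of 16 detected, and 4 of 11 intronless members, Jon25Biii (829 nt), Jon66Ci (837 nt), Jon99Ciii (880 nt) and Jon99Fi (934 nt). Families noticed among the members and therefore counted after the values were seen were the neprilysin-like metallopeptidases, with 7 of 16 intronless genes detected (2050 to 2571 nt, the longest Nep6), the epsilon glutathione S-transferases with 3 of 9 (GstE2, GstE3 and GstE6), Mediator subunits with 3 of 6 (MED8, MED16 and MED28), V-ATPase subunits with 2 of 9 (Vha14-1 and Vha36-1) and NPC2-like sterol-binding proteins, with single-exon isoforms of Npc2a and Npc2h. These families were picked for their presence, and their counts show nothing about other families.

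Among metabolic and ribosomal families, 29 of 81 cytochrome P450 genes were detected, with single-exon isoforms of Cyp4g1 (2278 nt) and Cyp6a13 (1648 nt), which are 2 of the 4 intronless members. Of 85 cytosolic ribosomal protein genes 53 were detected and only RpLP2 (605 nt), of the ribosomal stalk, was single-exon. RpLP2 was the only detected one of 5 intronless members. Of 73 mitochondrial ribosomal protein genes 22 were detected, with mRpL18 (771 nt) as the single-exon one and the only detected one of 8 intronless members. UDP-glycosyltransferases (10 of 35 detected), cuticle proteins (9 of 70), NADH dehydrogenase subunits (18 of 40) and cytochrome c oxidase subunits (5 of 16) had spliced isoforms only. In the same order these lists hold 2, 6, 3 and 1 intronless genes, and none of them had an isoform. Such numbers are too small to read against the share of all intronless genes.

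The strand written for the members carried no information on the gene. It was the strand of the gene in 134 of 269 (49.8%, exact 95% interval 43.7 to 55.9%; exact two-sided binomial test against an even split, p = 1), whereas all 4671 spliced isoforms were written on their gene's strand. The longest members written opposite to their gene were Toll-7, vvl, eEF1alpha1, CG5742 and Rat1. The plus strand was written for 164 members (61.0%, 54.9 to 66.8%; exact p = 0.000386 against an even split), while 145 of the genes (53.9%, 47.7 to 60.0%) are on the plus strand. This share was 60.0% among 145 plus-strand genes and 62.1% among 124 minus-strand genes (odds ratio 0.916, 0.543 to 1.54; Fisher's exact test, p = 0.802, adjusted 0.802). Among the 301 unidentified single-exon isoforms it was 57.8% (adjusted p = 0.579 by Fisher's exact test against the members).

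The written strand was set against end positions as well, as a test chosen after the values were seen. Members written on the gene's strand had a 3′ end within 1 nt of annotation in 68 of 134 cases (50.7%) and the others in 49 of 135 (36.3%), an odds ratio of 1.80 (1.08 to 3.03; p = 0.0196 and adjusted p = 0.0391, Fisher's exact test, two-sided). For 5′ ends the shares were 82.8% and 85.9% (odds ratio 0.791, 0.384 to 1.61; exact test, adjusted p = 0.579), and within 150 nt of a 3′ end they were 127 of 134 and 127 of 135. Ends 2 to 150 nt beyond annotation were found in 38.8% and 49.6% (odds ratio 0.645, 0.385 to 1.07; exact test, adjusted p = 0.138).

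Some members cannot be told apart from another gene. More than 50% of the isoform lay on exons of a further annotated gene in 13 members (4.83%, 2.85 to 8.09%). Since the written strand is not reliable, Hsp22, which lies wholly on an exon of CG4456, Lsp2, a fat body storage protein gene that lies to 91.0% on an antisense RNA, and Hsp67Ba, to 75.9% on another, rest on the name given in the file. Mvk with CG33672 and CG34179 with slmo are further such pairs, and these members were chosen after their values were seen. Genes with near-identical copies, such as Hsp70Ab, alphaTub84D and the Jonah proteases of the 99 cluster, are uncertain in the same way, since reads of 1 copy can align to another. The isoforms of the neighbouring genes Nepl5 and Nepl6 carry the same consensus read name in the file and are uncertain too.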

How the data were processed

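Iso-seq libraries from heads of w1118 flies were pooled by the study and its reads were mapped with STARlong and collapsed with FLAIR; an isoform needed at least 2 full-length reads. The deposited values are exon coordinates on dm6, other than counts or expression: the authors give no abundance and no normalization for them. The sources used here state neither the reads of each library nor whether the study's 3′ end filter was applied to the pooled list.

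Isoforms were compared with Ensembl release 115 (assembly BDGP6.54, the same as dm6) by FlyBase identifier; 4035 of 4059 identifiers matched. Left ends in the file lay 1 nt to the right of the annotation in 157 of 269 members, so distances were corrected by 1 nt, while coordinates and lengths are as in the file. Single-exon isoforms took the strand of their gene, and distances were measured to the nearest annotated end of that gene. A gene was called nested if it lay inside an intron of another gene. Shares have Wilson intervals and strands exact Clopper-Pearson intervals. Fisher's exact tests were two-sided and adjusted over 8 tests by Benjamini-Hochberg. Planned tests of members against spliced isoforms at annotated ends are given as shares only, because naming depends on overlap with annotation. Wilson intervals, Fisher's exact test and its odds ratio intervals were tested on simulated data.

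Members and lists were chosen with earlier results of these data known; of 25 lists, 5 were added after the values were seen. Named were the 10 longest and 5 shortest members, genes with both kinds of isoform, up to 4 members of each list, the 5 genes with most introns spanned and the 5 longest with the opposite written strand; others are marked, and 1 member is counted but not reported here by name. Python 3.11.15, numpy 2.4.6, scipy 1.17.1 and matplotlib 3.10.9 were used.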

Additional observations from a re-analysis of the deposited data

How the results depend on the processing

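The share of members starting on an annotated start (84.4%) was 98.5% within 50 nt and 41.3% when the strand written in the file was used; for spliced isoforms it was 97.6% within 50 nt. The share of members ending within 150 nt of annotation (94.4%) was 86.2% within 50 nt, 43.5% within 1 nt, 47.2% on the written strand and 91.0% in protein-coding genes overlapping no other gene. For spliced isoforms (75.3%) it was 67.4% within 50 nt, 61.5% within 1 nt, 77.8% with 1 isoform per gene, 76.8% in genes overlapping no other and 76.9% under 3000 nt, a length chosen after seeing the data. With 10 nt of tolerance 72.1% of members lay inside an annotated single-exon transcript, with 1 nt 49.8% and with 50 nt 89.6%. Detection of intronless genes was 15.6%, in place of 11.0%, for transcripts of at least 1000 nt. At that length it was 36.5%, in place of 32.3%, for spliced genes and 34.3%, in place of 28.9%, for all genes. The nesting difference and the offset of near 3′ ends kept their direction and stayed past 0.05 under every alternative run for them. No paired analysis was possible because the 3 libraries are pooled in 1 list without a column per replicate, and no replicate could be left out. Planned tests of A-rich sequence, poly(A) signals, A counts within genes and TATA boxes, and their alternatives, were not run, since no genome sequence was used here. The unknown depth limits what the absence of an isoform can show.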
